A study of Arabidopsis thaliana with 4 samples.

Results

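The aldehyde dehydrogenase (ALDH) genes of Arabidopsis thaliana were followed in whole seedlings on 4 Affymetrix one-colour arrays. Of these, 2 are controls, and 2 hold RNA of seedlings exposed for 72 hours to GSH (reduced glutathione, the main soluble thiol of plant cells). The members are all probe sets annotated to exactly 1 gene whose symbol begins with ALDH and a number. These were 8 of the 22746 probe sets tested, 1 for each of 8 genes, out of 13356 genes measured by such probe sets. RefSeq lists 14 such genes, and for ALDH12A1, ALDH2B4, ALDH2B7, ALDH3H1, ALDH3I1 and ALDH5F1 the annotation used names no probe set of 1 gene. That annotation leaves 8730 of the 22746 probe sets without a gene, so these genes may still be on the array. Below, a gene is called measured only where the annotation assigns it a probe set of its own. The members were chosen by symbol and not by a measured value, but the family was put forward with its differences between treated and control arrays known. The differences of the members are therefore given as a description, without a test, and support nothing further.

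All seedlings were of ecotype Columbia, with an age of 15 days in the labels and no mutant allele or transgene named. The sources used here give no GSH dose and do not say whether controls were kept for the same further 72 hours, so treatment and age at harvest cannot be told apart. The question of the series is the effect of GSH on gene expression. The titles call the replicates biological, but separate cultures are not stated, so errors and p-values reflect no more than the scatter of these arrays. Values are log2 expression values, and a difference of 1 on that scale is a 2-fold change.

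Aldehyde dehydrogenases oxidize reactive aldehydes to carboxylic acids with NAD or NADP as the electron acceptor. Plants use them in the breakdown of amino acids and polyamines, in the synthesis of cell wall acids, in a side route of glycolysis, and against aldehydes that form when lipids are oxidized under stress. The family is numbered by sequence class, and its members work in different compartments. The compartments and substrates given here are background knowledge and not annotations of the files.

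On the treated arrays 7 of the 8 members had a lower mean, as had 51.5% of all probe sets, and 5 of those members lay past the threshold, an adjusted p under 0.05 in a limma fit over all probe sets, which 17.5% of all probe sets passed downward. The 2 largest differences belonged to ALDH11A3, for a glyceraldehyde 3-phosphate dehydrogenase of the cytosol (2.49-fold lower), and ALDH3F1, of the broad family 3 (2.07-fold lower). The pair for aminoaldehyde oxidation, ALDH10A8 and ALDH10A9, was lower by almost the same amount (1.41-fold and 1.40-fold), and ALDH22A1 was 1.23-fold lower. ALDH6B2, ALDH2C4 and ALDH7B4 stood at -0.10, -0.05 and 0.02 log2 units and did not pass.

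Lower calls made up 17.5% of all probe sets, higher calls 16.2% and both together 33.8%, beside 5 lower, 0 higher and 3 not past it among the members. Of the 8 members 6 lay among the brightest 25% of probe sets, where calls are more frequent, 28.5% lower and 58.2% in either direction, and 0 lay among the dimmest 25%. The treated values lay below both control values for 7 members, as they did for 34.0% of all probe sets. At least 2-fold lower without overlap were 2 members, against 1.69% of all probe sets. The median difference of the members was -0.39 log2 units and that of all probe sets -0.01. Since the family was put forward with these differences known, nothing is read from the counts.

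**Figure D1:**
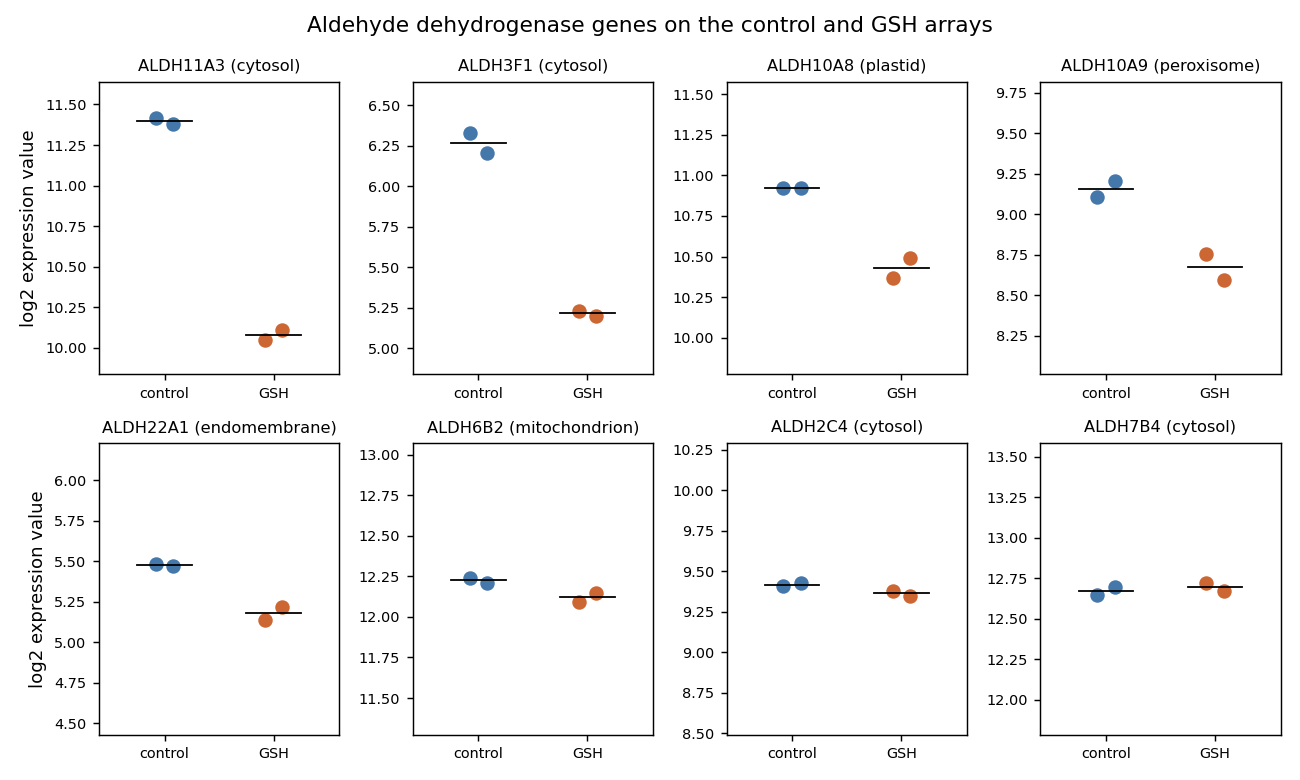
Log2 expression values (vertical axis, each panel spanning the same number of log2 units) of the 8 aldehyde dehydrogenase genes on the 2 control arrays (blue) and the 2 GSH arrays (orange), with a line at each group mean. The groups are separated in every panel but that of ALDH7B4, most widely for ALDH11A3 and ALDH3F1, while the separation for ALDH6B2 and ALDH2C4 is small.

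Sugar breakdown comes first, since it holds the member with the largest difference. ALDH11A3 (AT2G24270) encodes the non-phosphorylating glyceraldehyde 3-phosphate dehydrogenase, which turns a triose phosphate straight into 3-phosphoglycerate and yields NADPH, bypassing the step that forms ATP. Control arrays gave log2 values of 11.41 and 11.38, and treated arrays 10.05 and 10.11. Both treated values lay far below both controls, with 1.27 log2 units between the closest values of the groups and at most 0.06 between replicates. The difference was -1.32 ± 0.07 log2 units (limma SE, n = 2 per group), or 59.9% lower. Only 0.822% of all probe sets lay at or below this difference.

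The genes listed around ALDH11A3 are those of the triose phosphate steps of glycolysis, of which 2 of 15 were measured, and both fell. The list, like the others used here, was drawn up with earlier results of these data known. GAPC2, for the phosphorylating glyceraldehyde 3-phosphate dehydrogenase of the cytosol that competes for the same substrate, had values of 12.55 and 12.61 in controls and 12.05 and 11.96 after GSH. It fell by 0.57 ± 0.07 log2 units (limma adjusted p = 0.00142). TPI, for the triose phosphate isomerase that feeds both enzymes, fell by 0.34 ± 0.09 (limma adjusted p = 0.0218). That call was lost without control replicate 2 (-0.29, limma adjusted p = 0.0972) and without treated replicate 1 (-0.26, limma adjusted p = 0.0985), as well as under a replicate block with crossed numbers (-0.34, limma adjusted p = 0.0648). Separate control probe sets for GAPDH on the same arrays, whose gene is not named in the tables used here, stood higher after GSH by 0.16 to 0.35, with 3 of 5 past the threshold.

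ALDH3F1 and ALDH22A1 have no firmly assigned substrate in the plant. ALDH3F1 (AT4G36250) belongs to family 3, whose enzymes accept aldehydes of varied chain length. Its log2 values were 6.33 and 6.21 in controls and 5.23 and 5.20 in treated seedlings, so that the groups were separated by 0.98 log2 units. The difference was -1.05 ± 0.08 log2 units (limma SE, n = 2 per group), or 51.8% lower. In contrast to ALDH11A3, the control replicates were the wider pair here, 0.12 apart, and 0.03 separated the treated ones.

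ALDH22A1 (AT3G66658) encodes an enzyme predicted to enter the secretory pathway. Its values of 5.48 and 5.47 in controls and 5.14 and 5.22 after GSH did not overlap, and the difference was -0.30 ± 0.07 log2 units (limma SE, n = 2 per group). It is the member past the threshold that depends most on single arrays. Without control replicate 1, control replicate 2 or treated replicate 1 it no longer lay past it, at -0.29, -0.30 and -0.26, while without treated replicate 2 it did, at -0.34. Signals of ALDH3F1 and ALDH22A1 stood nearer the middle of the array than those of the other members, and no detection calls were used, so the size of their differences is less certain.

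ALDH10A8 and ALDH10A9 are the paralogs that oxidize aminoaldehydes, which arise when polyamines are broken down, and betaine aldehyde. They serve different compartments, ALDH10A8 the plastid and ALDH10A9 the peroxisome. ALDH10A8 (AT1G74920) had the same log2 value of 10.92 on both control arrays and 10.37 and 10.49 on the treated arrays. ALDH10A9 (AT3G48170) had 9.10 and 9.21 in controls and 8.76 and 8.59 after GSH. In neither gene did the groups overlap, and the replicates of ALDH10A9 lay up to 0.16 apart, the widest gap among the members.

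The differences of the paralogs were -0.49 ± 0.08 for ALDH10A8 and -0.48 ± 0.09 log2 units for ALDH10A9 (limma SE, n = 2 per group). The difference between both probe sets within an array averaged 1.77 in controls and 1.75 in treated seedlings, a shift of -0.01, and ran from 1.61 to 1.90 on the treated arrays alone. The plastid and the peroxisomal gene thus differed from each other in response by less than the spread between replicates.

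Polyamine genes stood beside this pair with 2 measured of 14 listed. CuAO1, a copper amine oxidase that makes aminoaldehydes from polyamines, had values of 8.22 and 8.27 in controls and 7.49 and 7.59 after GSH. It fell by 0.70 ± 0.07 log2 units (limma adjusted p = 0.000636). SAMDC, for the decarboxylase that supplies the aminopropyl groups of spermidine and spermine, stood at -0.11 ± 0.07 and did not pass (limma adjusted p = 0.289). Its groups did not overlap.

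**Figure D2:**
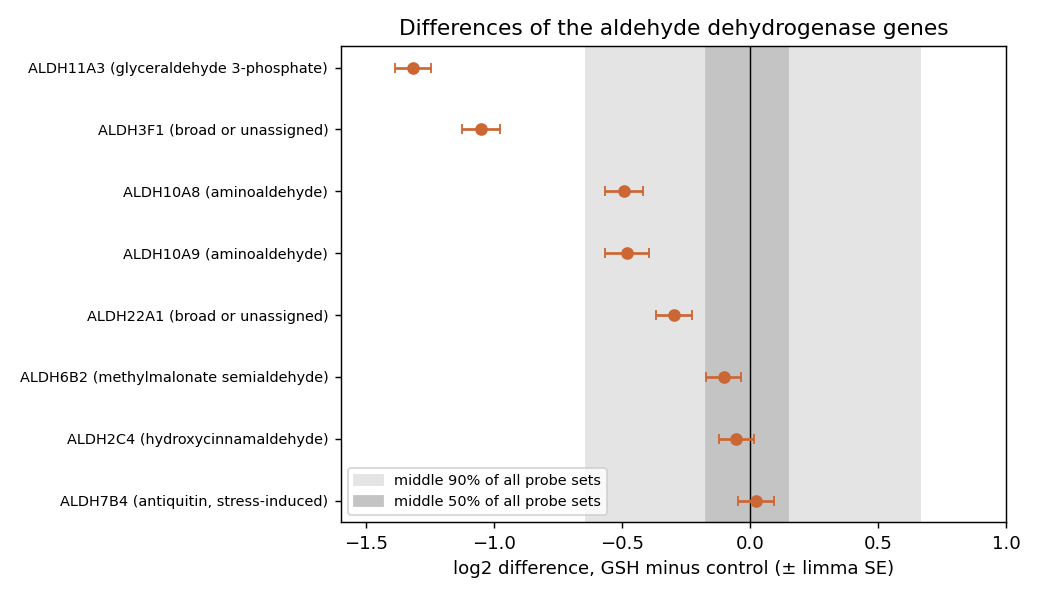
Log2 differences, GSH minus control (horizontal axis), of the 8 members with limma standard errors as bars, labelled by substrate class, over bands that hold the middle 50% and 90% of all 22746 probe sets. ALDH11A3 and ALDH3F1 lie outside the 90% band, ALDH10A8, ALDH10A9 and ALDH22A1 inside it but outside the 50% band, and the other 3 inside the 50% band.

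The remaining members differed little. ALDH6B2 (AT2G14170) encodes the methylmalonate semialdehyde dehydrogenase of the mitochondrion, which acts late in the breakdown of valine. Its log2 values were 12.24 and 12.21 in controls and 12.09 and 12.15 in treated seedlings. The groups did not overlap, but only 0.06 separated their closest values, about as much as separated the treated replicates, and the difference was -0.10 ± 0.07 log2 units.

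Of 8 other genes listed for the breakdown of branched-chain amino acids 3 were measured. MCCA and MCCB encode the 2 subunits of methylcrotonyl-CoA carboxylase in leucine breakdown. MCCA fell by 0.31 ± 0.07 log2 units (limma adjusted p = 0.0137), from 11.98 and 11.95 to 11.68 and 11.63. That call was lost without control replicate 1 (-0.30, limma adjusted p = 0.0672) and without treated replicate 2 (-0.29, limma adjusted p = 0.062). MCCB stood at -0.19 ± 0.07 and IVD, for isovaleryl-CoA dehydrogenase of the same pathway, at 0.09 ± 0.08, and neither passed (limma adjusted p = 0.0785 and 0.431).

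ALDH2C4 (AT3G24503), also known as REF1, oxidizes coniferaldehyde and sinapaldehyde to ferulic and sinapic acid, building blocks of wall-bound esters and of ultraviolet-absorbing sinapate esters. It had values of 9.41 and 9.43 in controls and 9.38 and 9.35 in treated seedlings. All 4 values lay close together, and the difference was -0.05 ± 0.07 log2 units. Of 20 phenylpropanoid and sinapate genes 3 were measured. UGT84A3, a glucosyltransferase that forms glucose esters of hydroxycinnamic acids, fell by 0.37 ± 0.07 (limma adjusted p = 0.00791). HCT, which forms the shikimate esters on the way to lignin, stood at -0.18 ± 0.07 and UGT84A1, another such glucosyltransferase, at -0.05 ± 0.08, and neither passed (limma adjusted p = 0.112 and 0.639).

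ALDH7B4 (AT1G54100) encodes the plant antiquitin, an enzyme known in Arabidopsis for its induction by drought, salt and abscisic acid. Control arrays gave 12.64 and 12.70, and treated arrays 12.72 and 12.67. It is the member whose groups overlapped, and the difference was 0.02 ± 0.07 log2 units, within the spread between replicates. Its signal was among the brightest 1% of the table, and so was that of ALDH6B2.

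Of the genes listed for disposal of reactive carbonyls by other enzymes, 7 of 19 were measured, with 1 higher, 1 lower and 5 not past the threshold. The list goes by gene name, and the activity of each enzyme was not examined. AER, for an alkenal reductase that saturates the double bond of lipid-derived aldehydes, had values of 9.58 and 9.45 in controls and 9.97 and 10.08 after GSH, and rose by 0.51 ± 0.08 log2 units (limma adjusted p = 0.00374). GLX2-1, of the glyoxalase II family, fell by 0.45 ± 0.07 (limma adjusted p = 0.00286), from 9.78 and 9.76 to 9.29 and 9.34. GLX2-5 and GLY2 of the same family stood at -0.21 ± 0.07 and -0.19 ± 0.07 and did not pass (limma adjusted p = 0.0593 and 0.0907). The other 3 ranged from -0.18 (DJ1D) to 0.20 (AOR, an alkenal reductase of the chloroplast).

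The 1 measured gene of 15 for proline and GABA metabolism, DELTA-OAT for ornithine aminotransferase, stood at -0.06 ± 0.08 (limma adjusted p = 0.603). Over all lists 18 of 91 genes were measured, and 6 fell, 1 rose and 11 did not pass, so that 38.9% lay past the threshold beside 33.8% of all probe sets. Their median difference was -0.19 log2 units. Of the 7 calls, 1 (GLX2-1) remained without moderation of the spread, where MCCB passed as well. The pathways as wholes were hardly covered by probe sets with an assigned gene.

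**Figure D3:**
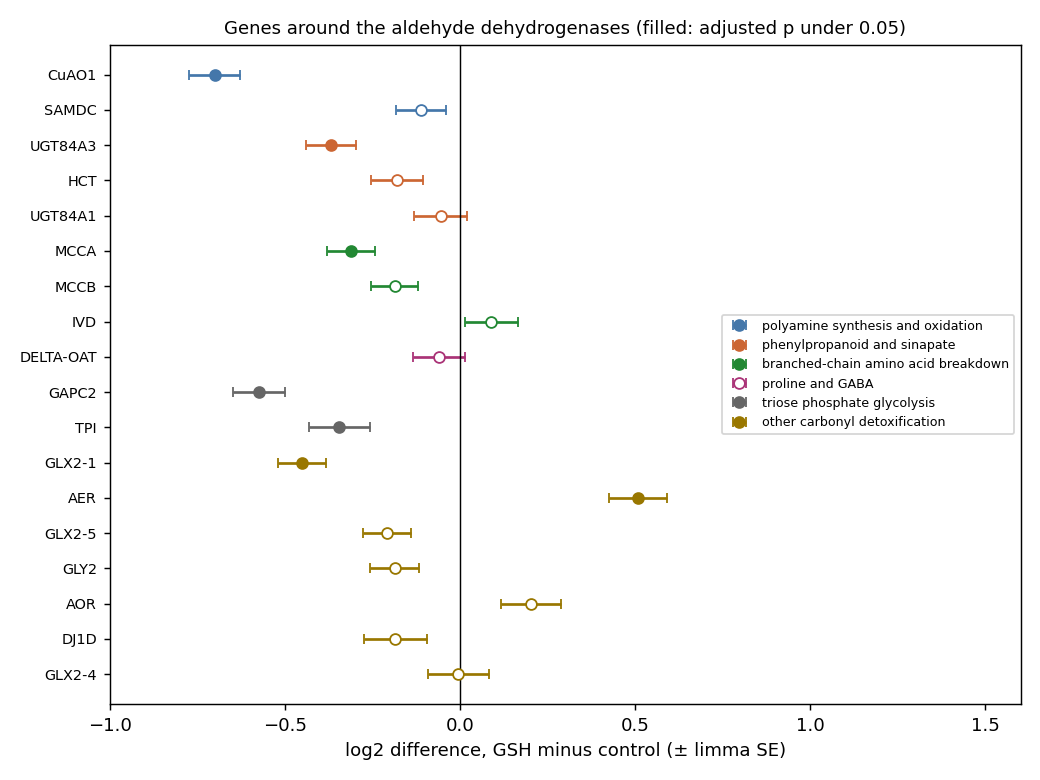
Log2 differences, GSH minus control (horizontal axis), with limma standard errors for the 18 measured genes of the pathway lists, coloured by list. Many of these genes act elsewhere in a pathway and not on an aldehyde. Filled points mark those past the threshold. AER is the 1 filled point to the right of 0, and CuAO1 and GAPC2 lie farthest to the left.

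Some technical and tissue measures were lower on the treated arrays too. The 2 control arrays and the 2 treated arrays correlated at 0.998 each across genes, and pairs across the groups at 0.982, values that describe the arrays since genes are not independent replicates. Signal for 25S ribosomal RNA, from a control probe set, was lower after GSH (-2.97 ± 0.09 log2 units). The 27 probe sets for spiked Bacillus RNA, which does not come from the plant, had a median of -0.26. They ranged from -0.87 to 0.13, with 11 lower and 0 higher past the threshold. For the 18 probe sets of hybridization controls the median was -0.16, with 4 lower and 0 higher. The 11 control probe sets for actin or ubiquitin had a median of 0.11, with 0 past it. Of 8 markers of green tissue 4 were measured, and 2 fell, LHCB4.2 (-0.42) and RCA (-0.24). Their summed signal was 13.40 and 13.34 log2 units in controls and 13.07 and 13.16 in treated seedlings. The 3 root markers measured of 4 stood between -0.25 and 0.13, and none passed, while their summed signal ran from 5.64 to 5.84 over all arrays. All 3 lay near the dim end of the table, among them PYK10, a defining root marker. Their group means ran from 3.93 to 4.33, beside a limit of 4.06 for the dimmest 25% of probe sets. With values so dim, a change in root tissue cannot be read from them. How much root RNA the arrays of these whole seedlings hold was not tested. None of the 8 flower and seed markers was measured. In whole seedlings fewer cells of a type and less RNA per cell cannot be told apart, and the part of these measures in the differences of the members was not tested.

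The 5 lower members kept their direction under all 11 other settings of the fit. ALDH11A3 lay past the threshold in all 11, at -1.35 to -1.29 log2 units. ALDH3F1 (-1.11 to -0.99), ALDH10A8 (-0.55 to -0.43) and ALDH10A9 (-0.56 to -0.40) did so in 10 of 11, and all 3 were lost where the spread of each probe set was taken from its own 4 values alone. Under that setting ALDH11A3 was the 1 member past the threshold, and 1425 probe sets were in place of 7680, so the count of members rests on the variance that limma shares across probe sets. ALDH22A1 lay past it in 7 of 11. ALDH6B2, ALDH2C4 and ALDH7B4 lay past it in 0 of 11.

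**Figure D4:**
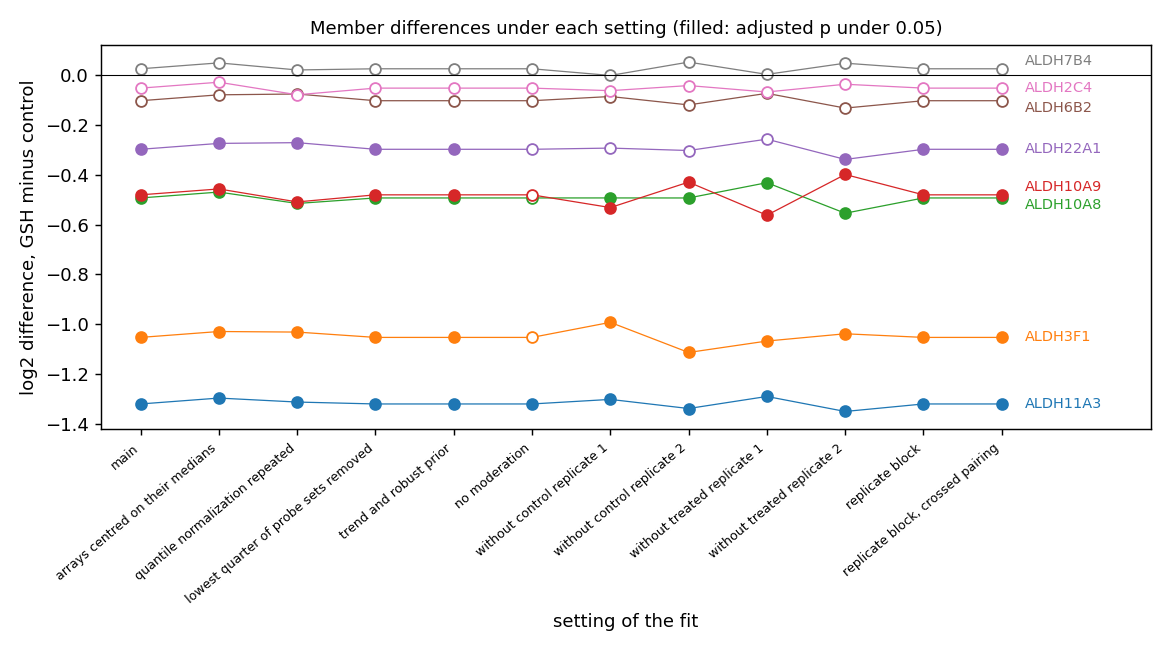
Log2 difference, GSH minus control (vertical axis), of each member under the main fit and the 11 other settings (horizontal axis), filled where the adjusted p was under 0.05. The order of the members stays nearly the same, though ALDH10A8 and ALDH10A9 change places, as do ALDH6B2 and ALDH2C4. Open points appear for ALDH3F1, ALDH10A8, ALDH10A9 and ALDH22A1 where the spread was not moderated, and for ALDH22A1 also in 3 of the 4 fits with 1 array left out.

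The genes whose pattern over the 4 arrays was most like that of ALDH11A3 were AT5G38980, AT1G14890 and AT4G36550. Likeness was the Euclidean distance of log2 values from the control mean, over 13505 other probe sets with 1 gene. The distances were 0.0212, 0.0625 and 0.0635 log2 units, and the differences between groups -1.31, -1.36 and -1.34. In all 40 such probe sets lay within 0.2 of ALDH11A3, and with 4 arrays in 2 groups this measure reflects little more than a like difference between the groups.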

How the data were processed

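The deposited values are log2 expression values of 22810 probe sets on 4 arrays, made by the authors with Affymetrix Expression Console and RMA, per the submitters' processing notes (no versions given). RMA corrects background, makes the distributions of the arrays nearly equal and summarizes the probes of a set, so it hides a shift common to most genes. Values were used as deposited. Tests on genes leave out 64 control probe sets, and the small number of arrays limits the precision.

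Each array's group came from its title. Its description speaks of embryos, against its source and tissue labels, and was not used. Names come from the platform annotation, an old one, with symbols brought up to date through gene identifiers (RefSeq, TAIR10.1). Of 22746 tested, 13513 carried 1 gene, 503 several and 8730 none. No coordinates are given, since no build is named for the array.

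Treatment was the factor of a linear model in limma 3.58.1 under R 4.3.3 (functions lmFit and eBayes), with 2 residual and 4.55 prior degrees of freedom, tested two-sided with Benjamini-Hochberg adjustment over all tested probe sets and a threshold of 0.05. The fit was also run on simulated data whose spread was drawn from the limma prior of these arrays. That run checked the code only and bears on no call given here. The members and lists were chosen with earlier results of these data known. All members are named, and in each list the up to 4 genes with the smallest p. AOR, DJ1D, GLX2-4, LHCB4.1, LHCB4.2, LHCB4.3, RCA and PYK10 were named after their values were seen. List names that match several RefSeq genes were left out (10 names). Alternatives were other scalings, a filter on dim probe sets, other variance estimates, leaving out each array and a replicate block.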

Additional observations from a re-analysis of the deposited data

Results flagged for a closer look

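All 5 control probe sets for GAPDH, which enter no comparison of genes, had treated values that both exceeded both control values. Of these, 3 passed the threshold when fitted with all probe sets of the file. Their log2 differences were 0.29 (values of 10.45 and 10.34 in controls, 10.63 and 10.73 after GSH), 0.35 (10.73 and 10.59, then 10.94 and 11.08) and 0.29 (10.86 and 10.94, then 11.19 and 11.18), with limma adjusted p = 0.0313, 0.0215 and 0.0209. They stand out because GAPC2 and ALDH11A3, which encode dehydrogenases of glyceraldehyde 3-phosphate, were lower on the same arrays. The other 2 control probe sets stood at 0.17 and 0.16 and did not pass.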

How the results depend on the processing

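With the spread of each probe set taken from its own values alone 1425 of 22746 probe sets, 1 of 8 members and 2 of 18 pathway genes passed the threshold, against 7680, 5 and 7. Those 2 were GLX2-1, called in both fits, and MCCB, which had not passed before. A prior with trend and robust estimation gave 12 pathway genes. Centring arrays on their medians moved the members' median difference to -0.37 from -0.39 log2 units. Leaving out 1 array at a time gave 6186 to 6248 probe sets, 4 to 5 members, 6 pathway genes (6 each time) and medians of -0.39 to -0.35, with the lone array of a group assumed to vary like the other group. Reversed directions were near 0 and not past the threshold, and the cause was not tested. GLX2-4 stood at 0.019 with centred arrays. With 1 array left out, ALDH7B4 ranged from -0.0035 (without control replicate 1) to 0.050 (without control replicate 2), GLX2-4 from -0.11 to 0.097 (without control replicate 2; 0.0027 without treated replicate 1), UGT84A1 from -0.11 to 0.0029 (without control replicate 2) and DELTA-OAT from -0.12 to 0.00022 (without treated replicate 1). With the replicate number as a block 6235 probe sets, 5 members and 7 pathway genes passed, and the members' median stayed at -0.39. The numbers are not known to pair the arrays: deviations of same-numbered arrays correlated at -0.10 across probe sets. A block with crossed numbers, added after the data were seen, gave 6898, 5 and 6, with TPI lost (-0.34). No member had a second probe set, so that alternative gave no value. Without detection calls, signal over background is unknown.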
